A study of Mus musculus with 6 samples.

Results

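The cytosolic ribosomal protein genes were taken from the mouse annotation as the protein-coding genes whose symbols start with Rpl, Rps, Rplp or a like prefix and a digit, without the Rps6k kinases. This rule found 138 of 22380 protein-coding genes. Of these, 84 carry a plain symbol and 54 carry -ps in the symbol, which marks processed copies that the annotation still lists as protein-coding. The rule rests on symbols, so it also takes in paralogs such as Rpl3l, Rpl10l and Rpl39l and the unrelated Rps19bp1, and it misses others such as Rpsa, Fau and Gnb2l1.

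The RNA-binding sites of YTHDC1, a nuclear reader of the RNA mark N6-methyladenosine (m6A), were mapped by LACE-seq. In this method RNA is crosslinked to protein by ultraviolet light, precipitated with an antibody and reverse transcribed, and the cDNA stops at or near the crosslink. There were 4 libraries of ASC-48 hr, muscle satellite cells (the stem cells of skeletal muscle) labelled ASC and kept in culture for 48 hr, as biological replicates B1 and B2 with technical replicates T1 and T2 each. The other 2 libraries were of C2C12, a mouse myoblast line, from more cells. All 6 libraries carry the label WT and the same YTHDC1 antibody, and no library of a control precipitation was analysed here. The labels number the C2C12 libraries as biological replicates while the text of the study calls them technical, so the spread between them may be technical. The age and strain behind the ASC libraries were not given in the labels. Of 9 markers of myoblasts and satellite cells, 8 had a peak in a C2C12 library and 6 in an ASC library. Of 5 markers of other cells, Acta2 and Pdgfra had peaks in C2C12 and Pecam1 had 1 in each library, while Ptprc and Adipoq had none. Peaks shared between libraries, as defined below, were in 6 of the 9 in C2C12 and in 0 in ASCs. Of the 5, 3 held one in C2C12 and 1 in ASCs. Of all protein-coding genes, 36.9% held a peak in C2C12 replicate 2 and 18.5% in ASC B2 T2. The markers therefore say little of cell identity.

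Ribosomal proteins build the large (Rpl, Rplp) and small (Rps) subunits of the ribosome, and their mRNAs are among the most abundant of growing cells. Their first exons start with a run of pyrimidines, through which translation is tied to growth signals. Many of their introns hold small nucleolar RNAs (snoRNAs), which guide the modification of other RNAs, C/D box snoRNAs for methylation of the ribose and H/ACA box snoRNAs for pseudouridylation. Their mRNAs were also copied back into the genome many times as processed pseudogenes, which lack introns.

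Some of the peaks behind the results are shown as RNA-strand sequence from the mm9 reference, 5′ to 3′, with T for U. A first set comes from snoRNAs inside the introns of Rpl4, Rps2 and Rplp2, which held some of the highest peaks. Capitals mark TGATGA, the core of the C box, in the one where it occurred.
Rpl4, SNORD18, chr9:64022861-64022880: TGATGAgattccattggtcc
Rpl4, Snord16a, chr9:64023221-64023240: ctgggaacttgcagtgatgt
Rps2, Snora64, chr17:24857801-24857820: tttggattggcctcacagtg
Rplp2, Snora52, chr7:148634701-148634720: gtggtccatcctaatacctg
A second set comes from coding exons. The sequences of Rplp2 and Rpl4 occur once in the genome and that of Rpl19 occurs 9 times.
Rpl19, chr11:97890721-97890740: gtactgccaatgctcggatg
Rplp2, chr7:148636901-148636920: aggtgttggcaagctggcca
Rpl4, chr9:64025161-64025180: ttttgaaactggctcctggt
Another set comes from 5′UTRs, with the longest run of pyrimidines in capitals.
Rps24, chr14:25309941-25309960: TCTTTTCCTCCTCTCCagct
Rpl36a, chrX:131120221-131120240: CTCTCTCTTTCCgagctgct
Rpl5, chr5:108329581-108329600: tgactccggTCTTTTTCCCC
A last set comes from processed copies outside the parent genes. Here lower case and capitals mark the sequence that comes from 2 adjacent exons of the parent, so the join exists in the spliced mRNA and in the copy and not in the parent gene.
Rpl3 on Rpl3-ps1, chrX:12780181-12780200: atcattgcccacactcagAT
Rplp0 on Gm8730, chr8:105389041-105389060: tcgctttctggagGGTGTCC

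The values below are peaks called by the authors in each library and the reads per 20-nt bin that they gave each peak. A peak was counted in a gene when it lay wholly inside the gene on the strand opposite to it, since the reads are cDNA. A C2C12 shared peak is a peak of replicate 1 that overlaps a peak of replicate 2 by at least 1 nt, and there were 29087 of them. Library totals are unknown, and the peaks held 57953 to 111729 reads in the ASC libraries and 523067 and 607366 in the C2C12 libraries.

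In C2C12 a shared peak was found in more of the ribosomal protein genes than of all genes, but many of these peaks have several possible positions in the genome. At least 1 was found in 87 of 138 members (63.0%, exact 95% interval 54.4 to 71.1), beside 21.8% of all protein-coding genes. The share was 66 of 84 (78.6%) among members with a plain symbol and 21 of 54 (38.9%) among those with -ps. Of the translation factor genes (symbols starting with Eif or Eef) 28 of 67 held one (41.8%, interval 29.8 to 54.5), and of the mitochondrial ribosomal protein genes 10 of 77 (13%, interval 6.41 to 22.6). The interval of the members lay above that of the mitochondrial group and overlapped that of the translation factors only at its lower end. RNA abundance did not enter the peak calls and was not measured in these files, so binding and abundance of these mRNAs cannot be told apart. A single position means here that the exact 20-nt sequence of a peak occurs once in the genome, so near copies were not counted. With peaks of a single genome position in this sense alone, 34 of 138 members held one (24.6%, interval 17.7 to 32.7), beside 16.9% of all genes. Among members with a plain symbol it was 33 of 84 (39.3%, interval 28.8 to 50.5), and in these genes with any shared peak a median of 2.71% of coding 20-mers occurs once. With p at most 1e-05 in both libraries it was 26 of 138 members (18.8%, interval 12.7 to 26.4), with 44 shared peaks, beside 6.16% of all genes.

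The members held 225 C2C12 shared peaks, while 2 shared peaks lay on the strand of the gene. Replicate 1 had 346 member peaks and replicate 2 had 351. Of those in replicate 1, 225 were found in replicate 2 (65.0%, interval 59.7 to 70.1), beside 45.5% of all peaks in protein-coding genes. The recovery rose with peak height in the members: 134 of 241 peaks under 10 reads per bin were found again (55.6%), and 91 of 105 with 10 or more (86.7%). Over all protein-coding genes it rose too, from 38.9% to 79.8%. There 6859 of 42171 peaks had 10 or more, beside 105 of 346 in members, so the 65.0% and 45.5% compare unlike mixes of height. Over the 225 peaks the reads of both replicates had a Pearson correlation of 0.57 on the log2 scale and a Spearman correlation of 0.52, a description over peaks that share their libraries.

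**Figure D1:**
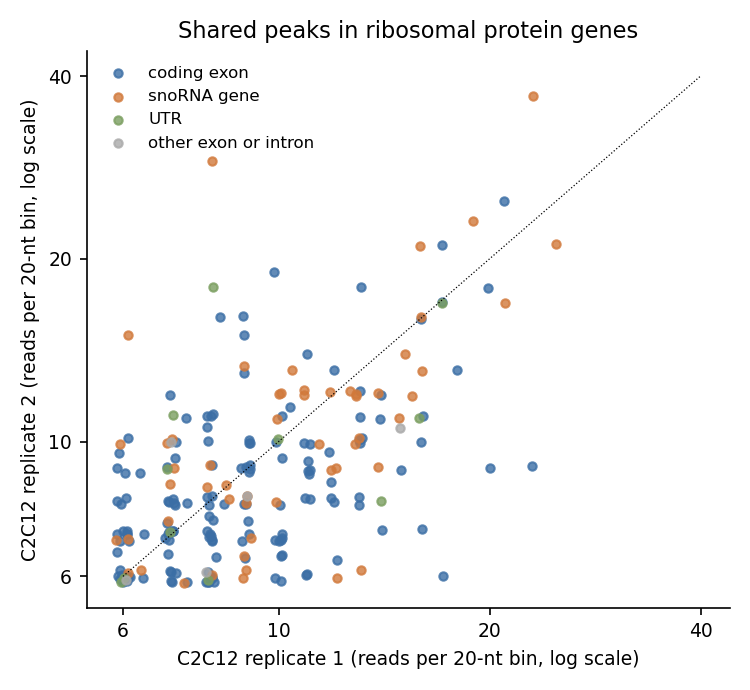
Reads per 20-nt bin of the 225 shared peaks in C2C12 replicate 1 (x axis) and replicate 2 (y axis), both on log scales, coloured by class, with points shifted slightly at random so that they do not hide each other and a dotted line of equal values. Most peaks sit between 6 and 12 reads per bin, and the highest, in Rpl4, reached 23 and 37.

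The shared peaks were mostly in coding exons when all were counted, and mostly on snoRNAs when those with a single genome position were. Of 225, 154 touched a coding exon (68.4%, interval 61.9 to 74.5), 55 touched a snoRNA gene (24.4%, interval 19 to 30.6), 8 a 5′UTR and 3 a 3′UTR. A further 3 lay in exons of transcripts without a protein product, and 2 in introns outside snoRNAs. Of the 81 with a single position, 24 touched a coding exon (29.6%, interval 20 to 40.8) and 50 a snoRNA gene (61.7%, interval 50.3 to 72.3). Over all protein-coding genes 45.2% of such peaks touched a coding exon and 1.24% a small RNA gene of any kind, snoRNAs included. In members with a plain symbol and a shared peak a median of 2.71% of coding 20-mers occurs once. Keeping single positions therefore removes mostly coding peaks by the sequence alone, so the shift between classes says little of binding. The intronic pair was in Rpl11, where the sequence occurs 274 times in the genome, and in Rpl31. Per kb of sequence, coding exons of members with a plain symbol held 2.38 shared peaks, their 5′UTRs 0.396, their 3′UTRs 0.0959 and their introns outside snoRNAs 0.00898. Over all protein-coding genes the same values were 0.231, 0.145, 0.142 and 0.00661. These values count peaks with several positions, which 92 of the 115 coding peaks behind the value of 2.38 were (80.0%), and 17.6% of those over all genes.

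**Figure D2:**
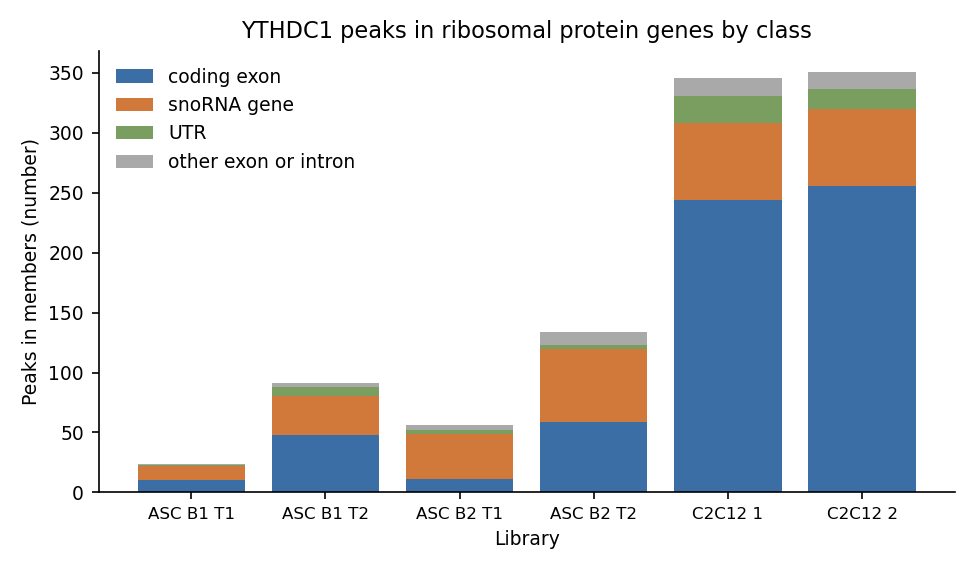
Number of peaks in members (y axis) in each of the 6 libraries (x axis), stacked by class. Coding exons make up most of the bar in both C2C12 libraries (244 and 256 peaks), while snoRNA genes hold 12, 32, 38 and 61 of the peaks in the 4 ASC libraries.

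Along the coding sequence the peaks were spread. When, for each member with a plain symbol, the transcript with the longest coding sequence was taken and this sequence was divided into equal parts, the 5′ part held 41 shared peaks, the middle part 39 and the 3′ part 30. Inside internal exons of at least 60 nt, 12 of 85 peak midpoints lay in the first 20 nt (14.1%, interval 7.51 to 23.4), which make up 14.6% of that length. The last 20 nt held 5 of 85 (5.88%, interval 1.94 to 13.2), also of 14.6% of the length. The reads were aligned without splicing, so reads that cross the end of an exon could not be placed there, and their part in the lower count was not tested.

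Large and small subunit genes gave similar counts. Of 51 Rpl and Rplp genes 40 held a shared peak, and of 33 Rps genes 26 did. The coding exons of the large subunit genes held 2.33 shared peaks per kb and those of the small subunit genes 2.47.

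The most peaks were found in Rpl4, with 13, of which 7 were on snoRNAs and 6 in coding exons. Rpl4 (chr9:64021194-64026369, plus strand) encodes a protein of the large subunit that lines the exit tunnel. In it, replicate 1 had 15 peaks and replicate 2 had 16, and the ASC libraries had 0, 3, 3 and 5 (T1 and T2 of B1, then T1 and T2 of B2). Of its 13 shared peaks, 12 had a 20-nt sequence that occurs once in the genome.

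Rplp0 (chr5:116009476-116013736, plus strand), the scaffold of the ribosomal stalk, held 12 shared peaks, 11 in coding exons and 1 in the 5′UTR. None of its shared peaks lay on a snoRNA, and 3 of the 12 had a sequence found once in the genome. The stalk proteins that bind to it, Rplp1 and Rplp2, held 5 each. Rpl8, a protein next to the peptidyl transferase centre, held 8, of which 7 were coding and 6 occur once in the genome.

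Rpl13a held 7, with 3 coding peaks and 4 on snoRNAs. Rpl5, which carries 5S rRNA into the large subunit, and Rpl7a held 6 each, with 4 on snoRNAs in both. Rps2 and Rpl10 held 5 each. In all, 12 members with a plain symbol had 5 or more shared peaks, and 26 members with a plain symbol had a single one. The same counts over all protein-coding genes were not made, and there a gene held up to 222 shared peaks.

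**Figure D3:**
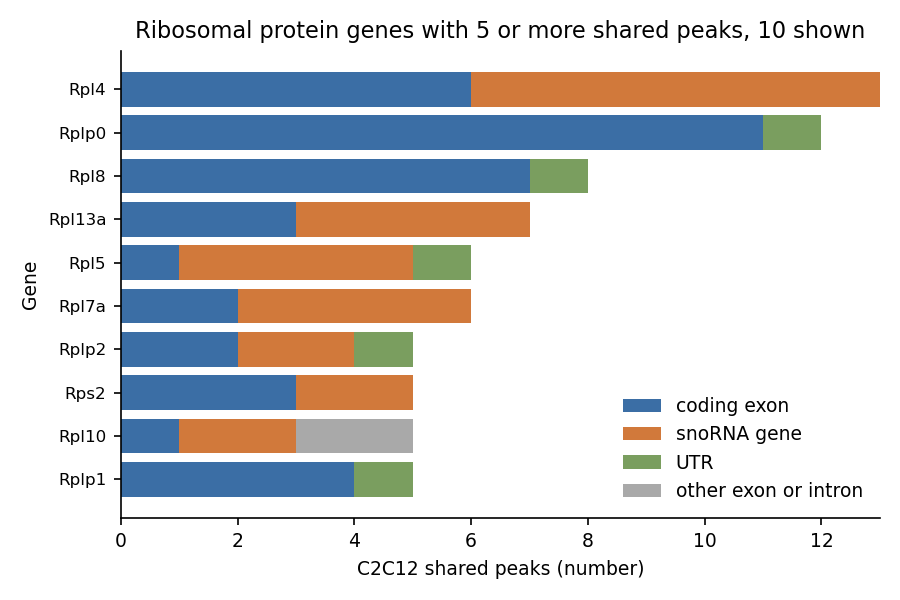
Number of C2C12 shared peaks (x axis) in each of the genes described above (y axis), stacked by class. Rplp0 and Rpl8 are made up of coding and 5′UTR peaks, whereas snoRNA makes up the larger part of the bars of Rpl4, Rpl13a, Rpl5 and Rpl7a.

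The highest peaks in members were few and modest. The peak on Snord16a in Rpl4, shown above, had 23 and 37 reads per bin in C2C12 replicates 1 and 2 (mean 30, SD 9.90, n = 2). The coding peak of Rpl19, a large subunit protein, had 21 and 25. The peak on SNORD18 in Rpl4 had 25 and 21. These are the only member peaks with a mean above 21.

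The next in height were on Snora64 in Rps2, with 19 and 23 reads per bin, in the coding exon of Rpl4 shown above, with 17 and 21, and on Snora52 in Rplp2, with 21 and 17. The coding peak of Rplp2 had 20 and 18. On Snord68 in Rpl13 the replicates stood apart, with 8 and 29. For Rpl17 the peak on SNORD58 had 16 and 21. Over all peaks of the C2C12 libraries the highest values were 62 and 64, so the member peaks were not the highest of these libraries.

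By class, the shared peaks on snoRNAs had a median of 10.5 reads per bin (mean of both replicates, range 6 to 30) and those in coding exons 8.25 (range 6 to 23). Of 8 peaks in 5′UTRs, that of Rps24, a small subunit protein, was highest, with 17 reads per bin in each replicate. It lies near the annotated start of the gene, at 25309903, and holds a run of 16 pyrimidines. Rpl36a had 12 in a row, Rpl5 had 11, and Rplp2 and Rpl8 had 10, while Rplp0, Rpl32 and Rplp1 had 5 or fewer.

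The letters GGAC, the core of the m6A consensus, were searched on the RNA strand within 20 nt of the peaks. They were found at 25 of 154 shared coding peaks of members (16.2%, interval 10.8 to 23.0), and in 20.3% of windows around 20-nt steps along all coding exons of the members. Peaks wider than 20 nt had longer windows than these steps. At shared coding peaks of all protein-coding genes the share was 24.3%. The longer GGACT was found at 5 of 154 (3.25%) beside 4.42% of windows. The coding peaks of members therefore did not hold these letters more often than the exons around them, which says only that the letters were not more frequent in these windows.

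The snoRNAs inside the introns of members often carried a peak. The annotation holds 55 snoRNA loci inside 29 members, after overlapping entries were merged, and 43 of 55 had a C2C12 shared peak (78.2%, interval 65.0 to 88.2). In the introns of other protein-coding genes 104 of 312 loci did (33.3%, interval 28.1 to 38.9). The hosts with such a peak were 25 of the 29. Among members, C/D box loci had a shared peak in 27 of 35 cases (77.1%) and H/ACA box loci in 15 of 17 (88.2%). The corresponding shares in other hosts were 38 of 67 (56.7%) and 43 of 186 (23.1%), so the intervals of both hosts were apart for the H/ACA box (63.6 to 98.5 against 17.3 to 29.8) and overlapped for the C/D box (59.9 to 89.6 against 44.0 to 68.8). The annotation of other hosts may hold snoRNA copies that are not transcribed, and their part in this difference was not tested.

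Within the snoRNA, the shared peaks were spread. Of 55, 2 had their midpoint before the annotated 5′ end, 17 had their midpoint in the first of 4 equal parts from the 5′ end, 15 in the next, 13 in the one after and 8 in the last. The annotated 5′ end itself was covered by 13 of 55 (23.6%), as in the Snora52 peak of Rplp2 shown above. TGATGA was in 5 of 33 shared peaks on C/D box loci (15.2%, interval 5.11 to 31.9) and in 9.89% of 20-nt windows along these loci. Some of these peaks are wider than 20 nt and can hold the letters more often by length alone, so the shares are not like for like. A snoRNA peak can come from the intron before the snoRNA is released or from the mature snoRNA, and these cannot be told apart here.

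**Figure D4:**
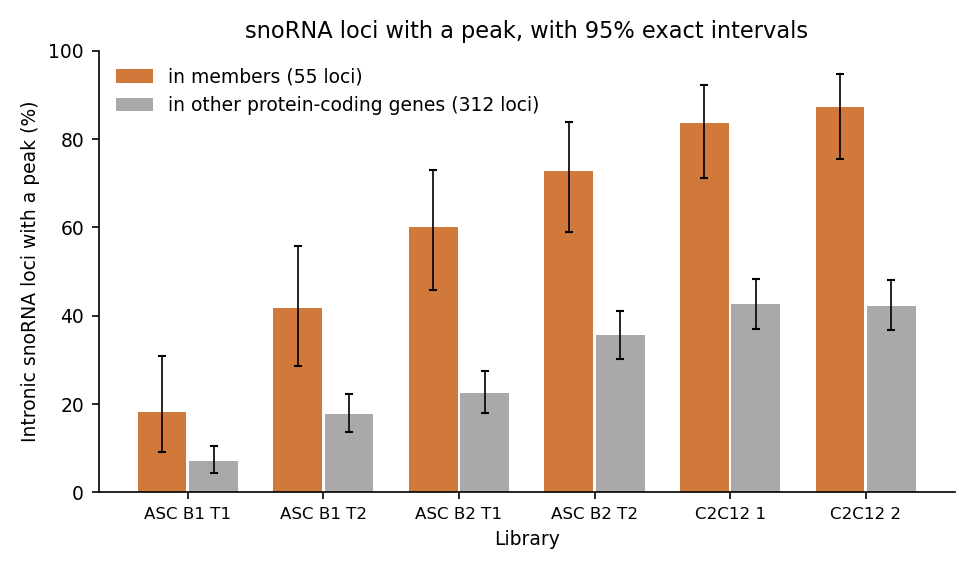
Share of intronic snoRNA loci with a peak (y axis, percent) in each library (x axis) for loci in members and in other protein-coding genes, with bars for exact 95% intervals. The members are higher in every library, from 18.2% against 7.05% in ASC B1 T1 to 87.3% against 42.3% in C2C12 replicate 2.

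In ASCs few member peaks were shared, and nearly all lay on snoRNAs. The ASC libraries had 24, 91, 56 and 134 member peaks, in the order given for Rpl4. Requiring a peak in T1 and T2 of both B1 and B2 left 9 member peaks in 7 genes (5.07% of members, interval 2.06 to 10.2), beside 2.46% of all protein-coding genes. Of the 9, 8 were on snoRNAs and 1 was in a coding exon, and 2 of 9 had a sequence that occurs more than once in the genome. The interval of the members contains the share of all genes. Of members with a plain symbol 7 of 84 held one (8.33%, interval 3.42 to 16.4), an interval above that share, and of those with -ps 0 of 54. In the single ASC libraries 12.3%, 33.3%, 23.2% and 42.0% of members held a peak, beside 7.81%, 9.98%, 9.10% and 18.5% of all genes. Without B1 T1, which had the fewest member peaks, 16 peaks in 12 members were shared (8.70% of members, interval 4.57 to 14.7), beside 2.9% of all genes. When each library had to reach 6 reads per bin, 2 peaks in 2 members remained (1.45%, interval 0.176 to 5.14), beside 1.28% of all genes.

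Both peaks of Rpl12, a protein of the stalk base, lay on Snora65. The first, at chr2:32818901-32818920, had 8, 8, 16 and 18 reads per bin in the ASC libraries, and its C2C12 values were 6 in replicate 1 and no peak in replicate 2. The second, at chr2:32818801-32818820, had 11, 12, 5.5 and 4, with 12 and 6 in C2C12. The first was higher in both B2 libraries than in both B1 libraries, and the second the other way round.

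Rps12 had a peak on Snord100 with 6, 10.5, 10 and 8 reads per bin. Rpl3, a core protein of the large subunit, had 2 peaks on Snord83b, with 5, 6, 12 and 11 and with 5, 6, 8 and 11.5. Rpl13a on Snord33 had 7, 5, 5.67 and 9, and Rpl6 on SNORA42 had 5, 7.5, 5 and 8. At these exact positions of Rpl13a and Rpl6 no C2C12 peak was listed, although Snord33 and SNORA42 each held a C2C12 shared peak elsewhere.

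The coding peak was in Rplp1, at chr9:61762201-61762220, whose 20-nt sequence has 3 occurrences in the genome. It had 10, 7, 6 and 4 reads per bin in the ASC libraries and 11.7 and 9.5 in C2C12. Of the C2C12 shared peaks of members 3 were called in all 4 ASC libraries, among them that at this place and one on Snora65 in Rpl12.

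The mix of classes differed between the cell types, in members and over all genes. In the ASC libraries 50%, 35.2%, 67.9% and 45.5% of member peaks were on snoRNAs, against 18.5% and 18.2% in the C2C12 libraries. In coding exons lay 41.7%, 52.7%, 19.6% and 44.0% in the ASC libraries and 70.5% and 72.9% in the C2C12 libraries. Over all protein-coding genes peaks on small RNA genes of any kind, snoRNAs included, made up 4.43%, 6.21%, 7.96% and 4.45% in the ASC libraries. In the C2C12 libraries they made up 0.927% and 0.856%. Coding peaks made up 12.8%, 21.2%, 28.8% and 30.5% against 39.4% and 35.8%. The libraries of the cell types did not overlap in either share, and the same contrast was seen over all genes. Depth, number of cells and the lowest listed value (4 or 5 reads per bin in ASC and 6 in C2C12) differed with the cell type, so these cannot be told apart. Of the 225 C2C12 shared peaks of members, 87 had a peak in at least 1 ASC library (38.7%). This was so for 41 of 55 snoRNA peaks (74.5%, interval 61.0 to 85.3). For coding peaks it was 40 of 154 (26%, interval 19.2 to 33.6). The same shares over all C2C12 shared peaks were not counted. The snoRNA peaks were also higher than the coding peaks in C2C12 (medians 10.5 and 8.25 reads per bin). The part of peak height in this difference was not tested.

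Many member peaks could not be placed at 1 position. The 20-nt sequence of 144 of 225 C2C12 shared peaks of members occurs more than once in the genome (64.0%, interval 57.4 to 70.3), against 21.4% of the shared peaks in all protein-coding genes. In coding exons it was 130 of 154 (84.4%, interval 77.7 to 89.8), against 17.6% over all genes. The authors placed each read at up to 10 positions where it fit, so 1 read may count in the gene and in its copies.

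The reverse view is that of peaks outside the genes that carry their sequence. Matching peaks to the whole spliced mRNAs of the members found 850 shared C2C12 peaks outside the members, but 828 were found when the letters were read in the other orientation. Of the 850, 246 had a sequence that occurs over 1000 times in the genome, led by Rps20 with 159 and Rps15a with 56, so this count says little of processed copies. It was 1686 in replicate 1 alone and 3021 in replicate 2 alone. When only coding sequence of the 84 members with a plain symbol was matched, 560 shared peaks outside these genes were found, and 27 in the other orientation. The 560 peaks held 513 distinct sequences and came from 65 of 84 parents, beside 115 shared coding peaks inside the parents.

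Of the 560, 245 lay on annotated pseudogenes, 130 in no annotated gene, 112 in other protein-coding genes, 38 in members with -ps, 13 in other genes and 22 where a gene is annotated on the other strand. They made up 22.5% of the 1088 shared peaks on pseudogenes of the opposite strand. For 165 of 487 peaks with a sequence from within an exon, the parent held a shared peak at the same place (33.9%, interval 29.7 to 38.3), and for 284 of 487 a peak of either library was there (58.3%).

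The other 73 of 560 spanned a join of 2 exons of the parent (13%, interval 10.4 to 16.1). Of all coding 20-mers of the parents 13.4% span such a join, which lies inside that interval. They came from 38 parents. Reads over a join match the spliced mRNA or the RNA of a copy, and these cannot be told apart.

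The parents differed widely in their copies. Rps2, a small subunit protein, held 3 shared coding peaks in the gene and 138 on copies, and the median of its coding 20-mers occurs 39 times in the genome. Rpl10 had 23 on copies beside 1 in the gene. Rplp0 had 17 on copies and 11 in the gene. Rpl8 and Rpl4, whose coding 20-mers occur once and 2 times at the median, had 7 and 6 in the gene and 1 each on copies. In all, 52 of the 84 had more shared peaks on copies than in their own coding exons. Of the 84, 15 had peaks on copies and no shared coding peak. Each read was placed at no more than 10 positions. For sequences with more copies, as in Rps2, the split between gene and copies is therefore not a full count.

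**Figure D5:**
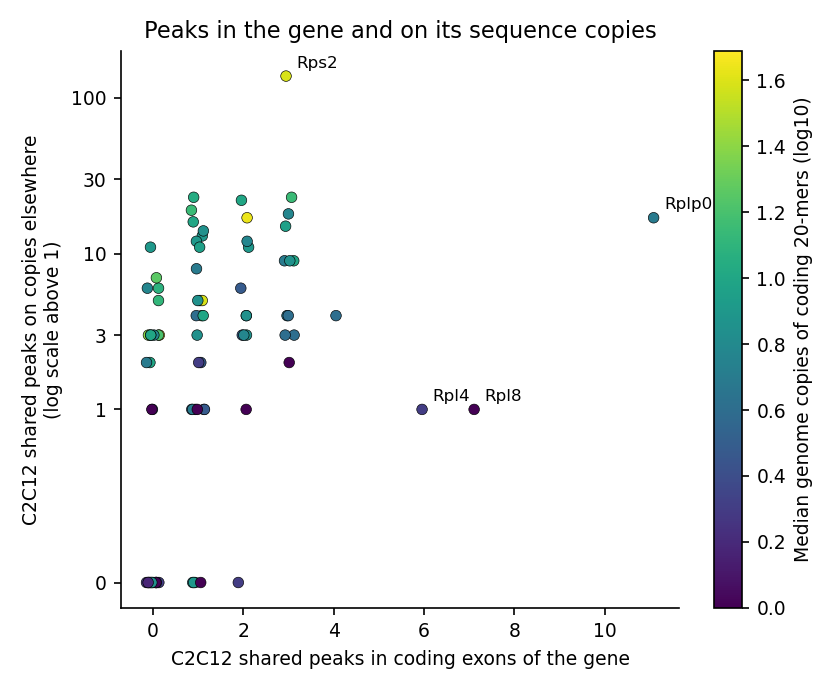
Each of the 84 members with a plain symbol by its C2C12 shared peaks in its own coding exons (x axis, shifted slightly at random) and on copies of its coding sequence elsewhere (y axis, log scale above 1), coloured by the median number of genome copies of its coding 20-mers. Rps2 stands apart with 138 on copies, and Rplp0, Rpl8 and Rpl4 at the right.

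The highest peaks on copies reached heights similar to those in the genes. A peak on Gm10051 with sequence of Rpl28 had 19 and 23 reads per bin, and one on Gm11942 with sequence of Rplp1 had 21 and 19. The join of Rpl3 on Rpl3-ps1 had 23 and 14. A peak with sequence of Rpl19 on Gm13216 had 14 and 19, and its sequence occurs 9 times, as does that of the coding peak in Rpl19. With the whole mRNA, a peak with sequence of Rpl39 also ranked among the highest, with 15 and 19. The join of Rplp0 on Gm8730, whose letters are found at 1 genome position, had 11 and 13 reads per bin in C2C12, and peaks with 9 and 4 in ASC B1 T2 and B2 T2.

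Of the 84 members with a plain symbol, 18 had no C2C12 shared peak, and 8 of these had one on a copy of their coding sequence. The peaks so matched to Rps19 include some whose sequence occurs 16798 and 16580 times, which need not be processed copies. The peak matched to Rps4y2 has sequence that Rps4x shares. Among the 18 were Rps6, Rps19, Rpl7, Rpl21 and Rpl35. Their coding 20-mers occurred 5.5 times at the median over genes, beside 6 in the 66 genes with a shared peak. In no library was a peak found in 26 members, of which 7 have a plain symbol: Rpl3l, Rpl10l, Rpl22l1, Rpl39l, Rps4y2, Rps15a and Rps25. The same count over all protein-coding genes was not made. In C2C12 replicate 2 alone, 74.6% of members and 36.9% of all protein-coding genes held a peak, so a gene without one is common. Rpl3l, Rpl10l, Rpl22l1 and Rpl39l are paralogs of core members, whereas Rps15a and Rps25 are core members of the small subunit. These genes were named after their values were seen.

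The cytosolic ribosome genes that the rule on symbols missed also held shared peaks. Rpsa, the laminin receptor and a small subunit protein, held 13 shared peaks, Gnb2l1 (the scaffold RACK1) 10 and Fau 2. Rpsa also had an ASC shared peak. Of 8 genes for the proteins that bind snoRNAs, Nop56 and Nop58 held 3 and 4 shared peaks. Fbl, Nhp2l1, Dkc1, Nhp2, Nop10 and Gar1 held none. That is 2 of 8, beside 21.8% of all protein-coding genes, so no trait of these genes is read from it. For the genes of this paragraph, the class and the copies of the peaks are not given here.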

How the data were processed

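LACE-seq peak lists of 6 libraries were analysed. Per the labels and the study's methods, the authors trimmed reads with Cutadapt 1.15, removed pre-rRNA reads, placed the rest on mm9 with Bowtie 1.2.3, without splicing and at several positions per read, and called peaks per library with Piranha. The deposited signal counts reads in each 20-nt bin (for wider peaks, averaged over bins) and was not normalized, so depth per library is unknown. The deposited p-value is Piranha's, unadjusted. Peak settings were stated for ASCs, and those for C2C12 were not given in the sources used here. Handling of PCR duplicates was not given in the sources used here.

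Genes came from GENCODE vM1 and sequence from NCBIM37, which is mm9. Of all peaks, 1287 on sequences outside this reference got no copy number. A peak was put in 1 class, with small RNA genes before coding exons, 5′UTR, 3′UTR, other exons and introns. Small RNA genes are those annotated as snoRNA, snRNA, miRNA, misc_RNA or rRNA. In members the C2C12 shared peaks of this class touched snoRNAs, and over all genes the class was not split. ASC shared peaks (2443) are those of T1 and T2 in B1 that overlap those of T1 and T2 in B2. Copies of a peak are exact occurrences of its 20-nt sequence on either strand, the lowest over its bins. The authors' alignment allowed mismatches, so reads of a peak without exact copies may also fit near copies, which was not tested. Intervals are exact Clopper-Pearson intervals at the 95% level and cover counting error across peaks only, since 1 read can support several peaks. No test between conditions was run, because the cell types differ in cells and depth. Counting was tested on simulated peaks. Python 3.11.15, numpy 2.4.6, scipy 1.17.1, pysam 0.24.0, samtools 1.23.1, numba 0.67.0 and matplotlib 3.10.9 were used.

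The members and lists were chosen with earlier results of these data known. Named are the 12 members with most C2C12 shared peaks, those with the 8 highest shared peaks, every member with an ASC shared peak, up to 10 with shared peaks on small RNA genes, the parents of the 5 highest peaks on copies, and the lists of other ribosome genes, snoRNA-binding proteins and cell markers. Some of these are not reported here. Alternatives on overlap, p, reads, G runs, strand, copies, small RNA genes, replicates, classes and search length were run. The match to coding sequence and the counts without -ps were added after seeing the data.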

Additional observations from a re-analysis of the deposited data

Results flagged for a closer look

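The 4 ASC libraries were searched for a library that stood apart from the other 3 in 26 sets of values, and 3 were found. The rule is set to flag about 1 in 20 sets of independent, continuous values, which these are not. Rplp1 had 2, 5, 2 and 2 peaks in T1 and T2 of B1 and then of B2, Rpl8 had 0, 1, 0 and 0, and Rpl7a had 0, 0, 0 and 2. In each the other libraries had equal small counts, so the gap was the whole range (a ratio of 1) by construction. T1 and T2 also share a biological replicate, so no conclusion is drawn from these flags.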

How the results depend on the processing

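In C2C12, 87 members, 225 shared peaks, 68.4% in coding exons, 24.4% on snoRNAs, 64% with copies, 65.0% found in the other replicate and 850 peaks on whole-mRNA copies, and in ASCs 7 members and 9 peaks, were recomputed under 100 combinations of a result and an alternative, and 59 kept their value within the limits set. The limits were a fixed ratio for counts and the main interval for shares. Some alternatives could not move a value, so 59 is not a measure of stability. The lowest C2C12 value is 6 reads per bin, and no member peak lay on a G run. The 828 of the other orientation also counted as kept. With p at most 1e-05 in every library the values were 26 members, 44 peaks, 54.5%, 38.6%, 45.5%, 43.1% and 89 copies, and 1 and 1 in ASCs. On the strand of the gene there were 2 members and 2 peaks, 0% coding, 50% on small RNA genes, 0% with copies and 22.2% found again, and 0 and 0 in ASCs. Peaks found at a single genome position left 34 members, 81 peaks, 29.6% coding and 61.7% on snoRNAs. Without small RNA genes 90.6% were coding and 81.8% had copies, and ASCs kept 1 and 1. Exons of all transcripts gave 74.7% coding. At least 6 reads per bin left 2 and 2 in ASCs. A search with 40 nt gave 48% with copies and 470 peaks on copies. The additions made after seeing the data gave 61.8% coding and 57.0% with copies for members without -ps, and 560 peaks on copies of coding sequence.

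Leaving out each C2C12 library gave 99 to 103 members, 346 to 351 peaks, 70.5% to 72.9% coding, 18.2% to 18.5% on snoRNAs, 64.7% to 67.2% with copies and 1686 to 3021 copies. Leaving out each ASC library gave 8 to 12 members and 10 to 16 peaks, highest without B1 T1. A lone C2C12 library has no second one to share peaks with, so its counts rise by construction. The causes of the other changes were not tested. No paired analysis was possible because no test between the cell types was run and replicate numbers of ASCs and C2C12 name separate samples. Depth is unknown, so a gene without a peak is one without a peak at this depth, and not one without binding.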
